A study of Mus musculus with 4 samples.

Results

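The NF-κB transcription factors and the IκB proteins that hold them back were examined as 10 genes in NKT cells of the small intestinal lamina propria (SI-LP). The genes were taken by symbol from the deposited count table and make up 10 of its 25239 genes. They comprise the 5 subunits (*Nfkb1*, *Nfkb2*, *Rel*, *Rela* and *Relb*) and 5 genes of the IκB family (*Nfkbia*, *Nfkbib*, *Nfkbid*, *Nfkbie* and *Nfkbiz*). NKT cells are T cells that recognise lipids presented by CD1d, and they were profiled by RNA-seq in 4 libraries of a single condition. The cells came from untreated wild-type C57BL/6Jax mice, stated for the study as 7 to 10 weeks old and of both sexes, and were sorted as living TCRβ+ CD1d-tetramer+ cells after removal of B220+, CD11b+, CD11c+ and CD8+ cells. The mice had received an anti-ARTC2 nanobody shortly before the tissues were taken. By the sample titles, the first experiment gave replicates 3 and 4, and the second gave replicates 1 and 2. Whether a library holds 1 animal or several is not given in the sources used here, so the spread between libraries may be partly technical.

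NF-κB acts as dimers of its subunits. In resting cells IκB proteins keep most dimers in the cytoplasm, and signals from antigen, cytokine or TNF-family receptors lead to phosphorylation and breakdown of IκB, which lets the dimers enter the nucleus. In the canonical arm these are mainly dimers of RelA or c-Rel with the product of *Nfkb1*, whereas the non-canonical arm processes the product of *Nfkb2*, which then acts with RelB. Several IκB genes are themselves NF-κB targets, so the pathway builds its own brake.

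Totals ran from 3882803 to 8732858 counts, of which the 10 genes took 0.254%, 0.134%, 0.221% and 0.134% in replicates 1 to 4. The libraries carried T cell RNA. All 8 T cell markers and all 6 genes listed as NKT1 markers were detected, and *Cd8a* and *Cd8b1* together took at most 0.000149% of counts. Of the NKT1 list, *Zbtb16* is named by the study as a marker of NKT2 and NKT17 cells. The libraries also carried other RNA. All 21 epithelial markers were detected, with 0.0935%, 1.05%, 0.0148% and 2.88% of counts in replicates 1 to 4. Of the value in replicate 4, *Lyz1* alone, a Paneth cell gene, gave 2.17%, and without it the other 20 took 0.0634%, 1.01%, 0.0139% and 0.706%. The T cell markers took 0.375%, 0.162%, 0.352% and 0.175%. Plasma cell markers (all 6 detected) took 0.655% and 0.839% in the second experiment and 0.0114% and 0.0387% in the first. Of the B cell, myeloid and stromal or endothelial markers, *Flt3*, *S100a8* and *S100a9* were at 0 counts in all 4 libraries and each list took at most 0.0247%. Each value given for a gene is the RNA of the whole sorted sample, in which fewer NKT cells and less RNA per NKT cell cannot be told apart.

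All 10 genes were expressed in all 4 libraries. The lowest value was the 66 counts of *Nfkbib* in replicate 4 (exact 95% Poisson interval 51.0 to 84.0) and the highest the 6536 counts of *Rel* in replicate 1 (6378 to 6696). These intervals cover counting error alone and are far narrower than the spread between libraries. Levels of different genes were compared as TPM, which corrects for gene length, and differences between libraries as CPM scaled with TMM factors. The members stood high among expressed genes. Their mean TPM percentile among the 11689 genes that reached 10 counts in 2 or more libraries ran from 66.4 for *Relb* to 96.5 for *Nfkbiz*, with a median of 87.1, where the median over all these genes was 48.1. The median was 73.5 for the 5 subunits and 91.7 for the 5 inhibitors.

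**Figure D1:**
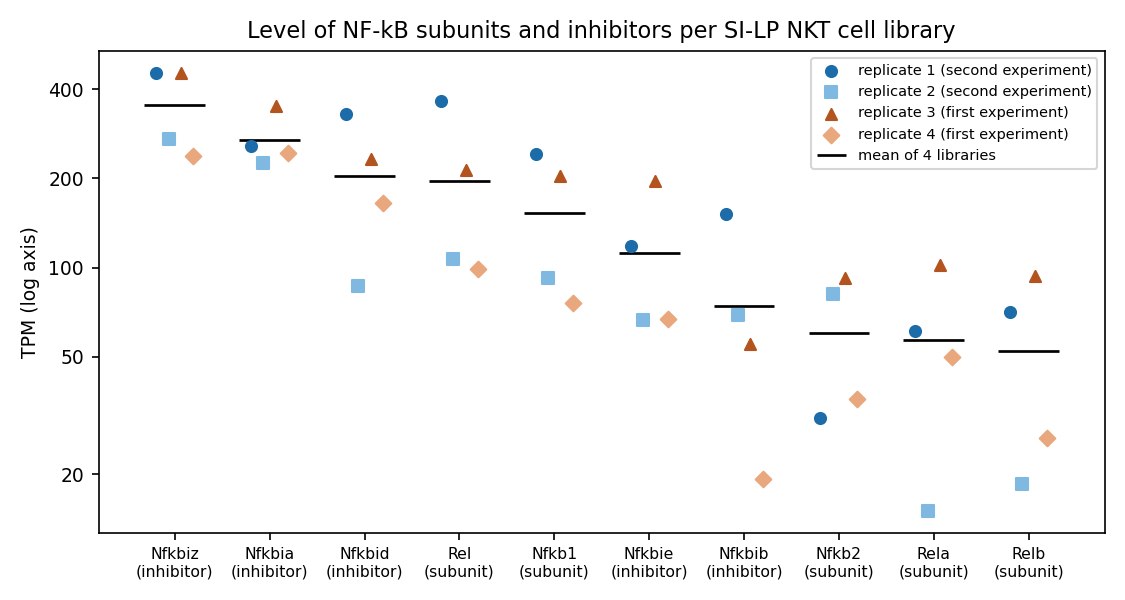
Each point is the level of a gene in 1 library in TPM (log axis), and bars mark the mean of the 4 libraries, with genes in order of that mean. *Nfkbiz* and *Nfkbia* lie at the top and *Rela* and *Relb* at the bottom, and for all genes but *Nfkbib* and *Nfkb2* replicates 1 and 3 lie above replicates 2 and 4.

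Promoters of the members are shown because several of these genes are known targets of the factor they encode or bind. RefSeq promoter windows (GRCm38.p6, the build of the count table, with 250 bases before and 50 after each start site) were matched for 7 of the 10 genes, in 11 windows. No window was matched for *Nfkb1*, *Relb* and *Nfkbiz*. The κB consensus, searched on both strands, occurred in 5 of these 7 genes (*Nfkb2*, *Nfkbia*, *Nfkbid*, *Nfkbie* and *Rel*), against 5.14% of the 27025 genes with a window. By window the match was found in 7 of 11, against 4.51% of 32851. Windows are not independent, since windows of *Nfkb2* overlap and share a match. The windows of *Nfkbib* and *Rela* held no match. Matches that overlap run together below. A match is a run of letters and was not measured as a binding site. For each of the 5 genes, a stretch of 100 bases upstream of a start site is printed 5′ to 3′ on the strand of the gene, with matches in capitals.
Nfkbia, chr12:55492648-55492747, minus strand: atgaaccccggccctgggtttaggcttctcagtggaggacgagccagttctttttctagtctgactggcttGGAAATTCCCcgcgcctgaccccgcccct
Nfkb2, chr19:46304637-46304736, plus strand: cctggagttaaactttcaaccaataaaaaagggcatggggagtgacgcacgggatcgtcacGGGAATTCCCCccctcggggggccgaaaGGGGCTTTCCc
Rel, chr11:23771020-23771119, minus strand: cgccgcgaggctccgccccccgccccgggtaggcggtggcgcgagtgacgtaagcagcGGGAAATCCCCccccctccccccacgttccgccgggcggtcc
Nfkbie, chr17:45555550-45555649, plus strand: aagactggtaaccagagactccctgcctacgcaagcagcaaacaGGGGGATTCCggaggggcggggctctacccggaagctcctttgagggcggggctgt
Nfkbid, chr7:30422156-30422255, plus strand: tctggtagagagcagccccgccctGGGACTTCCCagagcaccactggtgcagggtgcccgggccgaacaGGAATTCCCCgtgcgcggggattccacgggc
The match of *Nfkbia* begins 29 bases before its start site and the nearest of *Nfkb2* 11 bases before. Those of *Rel* and *Nfkbie* begin 92 and 106 bases before, and those of *Nfkbid* 226 and 181 bases before the second of its 3 start sites. The stretch shown for *Nfkb2* lies partly in an exon of *4833438C02Rik* on the other strand.

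Among the subunits, *Rel* and *Nfkb1* had the highest levels. *Rel* (chromosome 11, 23736850 to 23770969, GRCm38) encodes c-Rel, the subunit most closely tied to lymphocytes. Its level was 364.5, 107, 214 and 98.5 TPM in replicates 1 to 4, with a mean of 196 ± 124 TPM (SD, n = 4). Replicates 1 and 3 were above replicates 2 and 4, so that each experiment held a high and a low library. *Nfkb1* (chromosome 3, 135584655 to 135691547) encodes the precursor of the p50 subunit. It had 241, 92.3, 204 and 75.9 TPM, with a mean of 153 ± 81.7 TPM, and its libraries fell in the same way. *Rel* was above *Nfkb1* in 4 of 4 libraries by TPM, by 0.31 ± 0.23 log2 units (SD).

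*Rela* (chromosome 19, 5637541 to 5648134) encodes the most widely expressed activating subunit, and in these libraries it was among the lowest members. Its level was 61.0, 15.1, 102 and 49.9 TPM in replicates 1 to 4, with a mean of 57.0 ± 35.8 TPM. Replicate 2 was far below the other three libraries. By TPM, *Rel* exceeded *Rela* in each library, by 5.98-fold and 7.10-fold in replicates 1 and 2 of the second experiment and by 2.10-fold and 1.97-fold in replicates 3 and 4 of the first. Both libraries of the second experiment thus had a higher ratio than both of the first. With 2 libraries against 2, an exact permutation test cannot give a two-sided p below 0.333, so this difference was not tested.

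The non-canonical pair was low. *Relb* (chromosome 7, 19606222 to 19629438), whose product pairs with processed *Nfkb2*, had 70.9, 18.6, 93.3 and 26.5 TPM in replicates 1 to 4, with a mean of 52.4 ± 35.7 TPM. Replicates 2 and 4 were again the low libraries. *Nfkb2* (chromosome 19, 46304737 to 46312090) had 30.97, 81.5, 92.2 and 36.04 TPM, with a mean of 60.2 ± 31.2 TPM. It was the only member that was higher in replicate 2 than in replicate 1, under each scaling of the libraries except library size alone, under which *Nfkbia* was also higher. *Nfkb2* shares 84 exonic bases (2.55% of its 3292) with *4833438C02Rik* and 6 with *Psd*, both on the other strand, and fragments that touch 2 genes were not counted. Since strand was not used, its counts are uncertain. *Psd* had 141, 427, 147 and 66 counts in replicates 1 to 4, and *4833438C02Rik* 187, 67, 164 and 206 counts. Together *Relb* and *Nfkb2* made up 13.3%, 31.8%, 26.3% and 21.8% of the summed TPM of the 5 subunits, a mean of 23.3% ± 7.85 (SD, n = 4).

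The inhibitors fall into classical IκB proteins, which retain dimers in the cytoplasm, and nuclear ones, which act on dimers bound to DNA. Of the classical genes, *Nfkbia* (chromosome 12, 55489409 to 55492647) encodes IκBα, the fast feedback inhibitor. It had 258, 226, 350.5 and 243 TPM in replicates 1 to 4, with a mean of 269 ± 55.6 TPM. It was the steadiest member, with a highest library 1.94-fold above the lowest by CPM. *Nfkbie* (chromosome 17, 45555700 to 45563168), which encodes IκBε, had 118, 66.6, 196 and 66.8 TPM and a mean of 112 ± 61.1 TPM. Its replicates 2 and 4 were nearly equal and lay below both others.

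*Nfkbib* (chromosome 7, 28758251 to 28766644) encodes IκBβ and was the most variable inhibitor, with 152, 68.9, 55.3 and 19.3 TPM in replicates 1 to 4 and a mean of 73.9 ± 56.1 TPM. Its highest library was 7.88-fold above the lowest by TPM and 6.49-fold by CPM. Without replicate 1 its mean was 47.8 TPM, below the 69.9 TPM of *Nfkb2* and the 55.6 TPM of *Rela* in the same libraries. Of its 2125 exonic bases, 310 (14.6%) are shared with *Ccer2* on the other strand, and its counts are therefore uncertain. *Ccer2* itself had 0 counts in replicates 1 to 3 and 10 in replicate 4. By TPM, *Nfkbia* exceeded *Nfkbib* in each library, by 1.70-fold and 3.28-fold in replicates 1 and 2 and by 6.34-fold and 12.6-fold in replicates 3 and 4.

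The nuclear inhibitors were abundant. *Nfkbiz* (chromosome 16, 55811377 to 55838641), which encodes IκBζ, a nuclear cofactor that can also activate genes, had 455 TPM in replicate 1, 272 in replicate 2, 455 in replicate 3 and 239 in replicate 4. Its mean of 355 ± 116 TPM was the highest of the 10 genes. *Nfkbid* (chromosome 7, 30421731 to 30428746), which encodes the nuclear protein IκBNS, had 331, 86.3, 232 and 165 TPM and a mean of 204 ± 104 TPM. Replicate 2 was the lowest library of *Nfkbid*. These 2 genes together held 59.8%, 49.8%, 53.3% and 55.1% of the summed TPM of the inhibitors, a mean of 54.5% ± 4.16.

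In the order of mean TPM, *Nfkbiz* was followed by *Nfkbia*, *Nfkbid*, *Rel*, *Nfkb1*, *Nfkbie*, *Nfkbib*, *Nfkb2*, *Rela* and *Relb*. The order rests in large part on differences within the spread. Of the 9 pairs of neighbours, 2 kept their order in 4 of 4 libraries, namely *Rel* above *Nfkb1* and *Nfkb1* above *Nfkbie* (the latter by 0.44 ± 0.43 log2 units). For both, the exact two-sided sign-flip permutation test gave the smallest p that 4 libraries allow, which cannot pass 0.05, and an adjusted p = 0.562 over the 9 pairs. The other 7 pairs turned in at least 1 library. *Nfkbiz* was above *Nfkbia* in 3 of 4 libraries and *Nfkbid* above *Rel* in 2 of 4. *Nfkbib* was above *Nfkb2*, and *Nfkb2* above *Rela*, in 1 of 4 libraries each, so that the order of their means went against most libraries. *Nfkbib*, *Nfkb2*, *Rela* and *Relb* at the bottom did not differ from their neighbours beyond the spread. Within single libraries *Nfkbiz* ranked 1 or 2, *Nfkb1* 4 or 5, and *Relb* 8 or 9, while *Nfkbib* ranged from 6 to 10.

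By summed TPM the inhibitors exceeded the subunits in each library. The subunits summed to 768, 314, 706 and 287 TPM in replicates 1 to 4 and the inhibitors to 1315, 719.9, 1289 and 733 TPM. The inhibitor share was 63.1%, 69.6%, 64.6% and 71.9%, with a mean of 67.3% ± 4.12 (SD, n = 4). Without *Nfkb2* and *Nfkbib* it was 68.9%, whereas by CPM, in which long transcripts such as that of *Rel* weigh more, it was 52.8%. Without the length correction the order turned in replicate 1, where the subunits took 0.137% of counts and the inhibitors 0.117%. *Rel* led the subunits with a share of 36.5% ± 7.49, from 30.3% to 47.4%. The shares with the smallest SD in each class were those of *Nfkb1*, at 29.0% ± 2.02 of the subunits, and of *Nfkbiz*, at 35.1% ± 2.17 of the inhibitors, while *Nfkb2* ranged from 4.03% to 25.9% and *Nfkbib* from 2.63% to 11.6%.

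**Figure D2:**
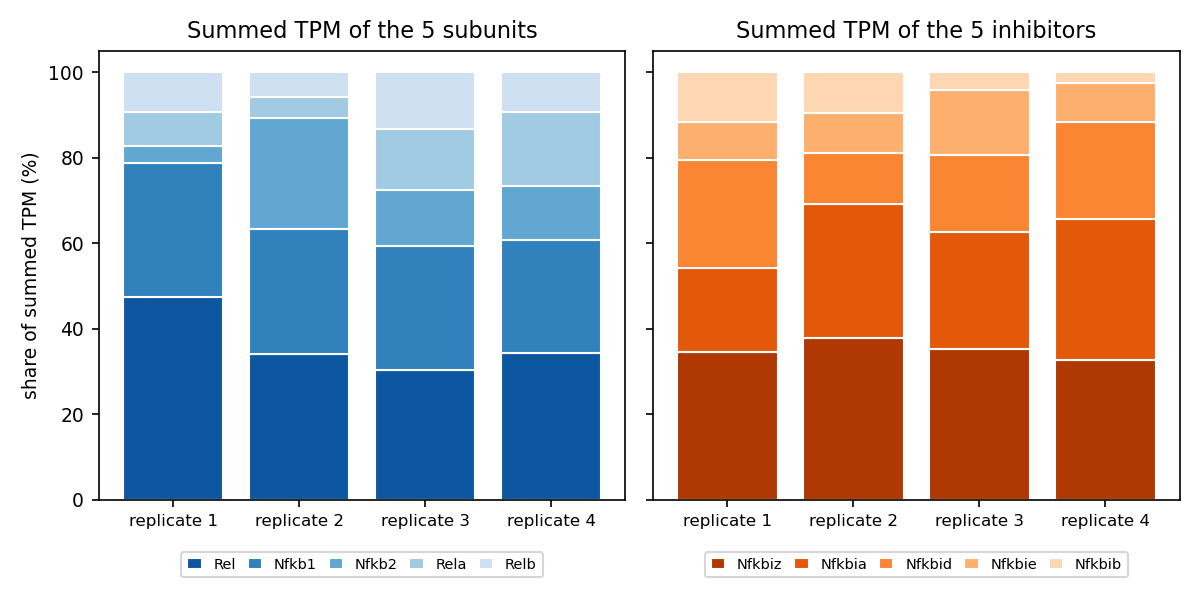
Stacked bars give the share (%) of each gene in the summed TPM of the 5 subunits (left) and of the 5 inhibitors (right) in each library. The *Nfkb1* and *Nfkbiz* segments have nearly the same height in the 4 libraries, and the *Nfkb2* and *Nfkbib* segments do not.

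Replicates 2 and 4 were the low libraries for nearly all members. In log2 CPM (prior count 2), 9 of the 10 members were lower in replicate 4 than in 3 and in replicate 2 than in 1, which held for 29.9% of all genes tested. *Nfkb2* was the exception, and with library size alone, in which the count fell to 8 and the share to 22.3%, *Nfkbia* was another. The median difference of the members was -1.24 log2 units between replicates 4 and 3 and -1.29 between replicates 2 and 1, where the median over all genes tested was 0.08 and 0.13. Library size alone raised these medians over all genes to 0.40 and 0.39. In the first experiment 7 members were over 1 log2 unit lower in replicate 4 than in 3, as were 19.3% of all genes, and 0 were over 1 log2 unit higher, as were 30.6%. In the second, 6 members were over 1 log2 unit lower in replicate 2 than in 1, as were 25% of all genes, and *Nfkb2* was higher by 1.35, where 34.1% of all genes were over 1 log2 unit higher. In both experiments 5 members were lower by over 1 log2 unit, against 8.08% of all genes, and 0 were higher by as much, against 19%. Each of these differences is between single libraries, which allow no test.

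By the median, the difference was larger in the subunits than in the inhibitors. It was -1.36 and -1.80 log2 units for the subunits in the first and second experiment and -0.94 and -0.86 for the inhibitors, a contrast that was not tested. *Relb* had -1.81 and -1.94, *Rela* -1.03 and -2.03, *Rel* -1.13 and -1.80 and *Nfkb1* -1.44 and -1.42. *Nfkb2*, the other subunit, had -1.36 and 1.35. *Nfkbia* had -0.54 and -0.23, *Nfkbiz* -0.94 and -0.78, *Nfkbib* -1.51 and -1.17, *Nfkbie* -1.56 and -0.86 and *Nfkbid* -0.50 and -1.97. The values of the classes thus overlapped in both experiments. Markers of other cells did not move alike between these libraries. Medians were 1.75 and -0.03 log2 units for plasma cell markers and 1.89 and 0.02 for myeloid markers. For stromal or endothelial markers they were 3.88 and -1.82. The 8 T cell markers, all of them lower in replicate 4 than in 3 and in replicate 2 than in 1, had a median of -1.42 and -1.11 log2 units, and the 21 epithelial markers one of 5.81 and 3.44. Set against the T cell marker median, *Nfkb2*, *Nfkbia* and *Nfkbiz* were higher in both experiments and *Nfkb1*, *Nfkbib* and *Relb* lower in both. The 6 genes listed as NKT1 markers, all lower in both pairs too, had a median of -1.21 and -1.94 log2 units. Against that median *Nfkbia* and *Nfkbiz* were higher in both experiments and *Relb* lower in both (differences of -0.60 and -0.0022). *Rel* was higher by only 0.08 and 0.13, which rests on *Zbtb16*, named by the study as an NKT2 and NKT17 marker. Without *Zbtb16* the middle marker is *Klrb1c* (-1.127 and -1.799), and *Rel* (-1.130 and -1.804) lies below it in both experiments. From the T cell marker median *Nfkb1* differed by -0.02 and -0.31 log2 units, *Nfkbib* by -0.09 and -0.06 and *Nfkbia* by 0.88 in each. *Nfkb2* differed from it by 0.06 in the first experiment and 2.46 in the second. *Nfkbiz*, above both medians in both experiments, lay above 20.6% and 29.4% of all genes tested. In each experiment most genes tested thus lay above both medians too. The part of epithelial RNA and of the share of T cell RNA in these values was not tested.

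**Figure D3:**
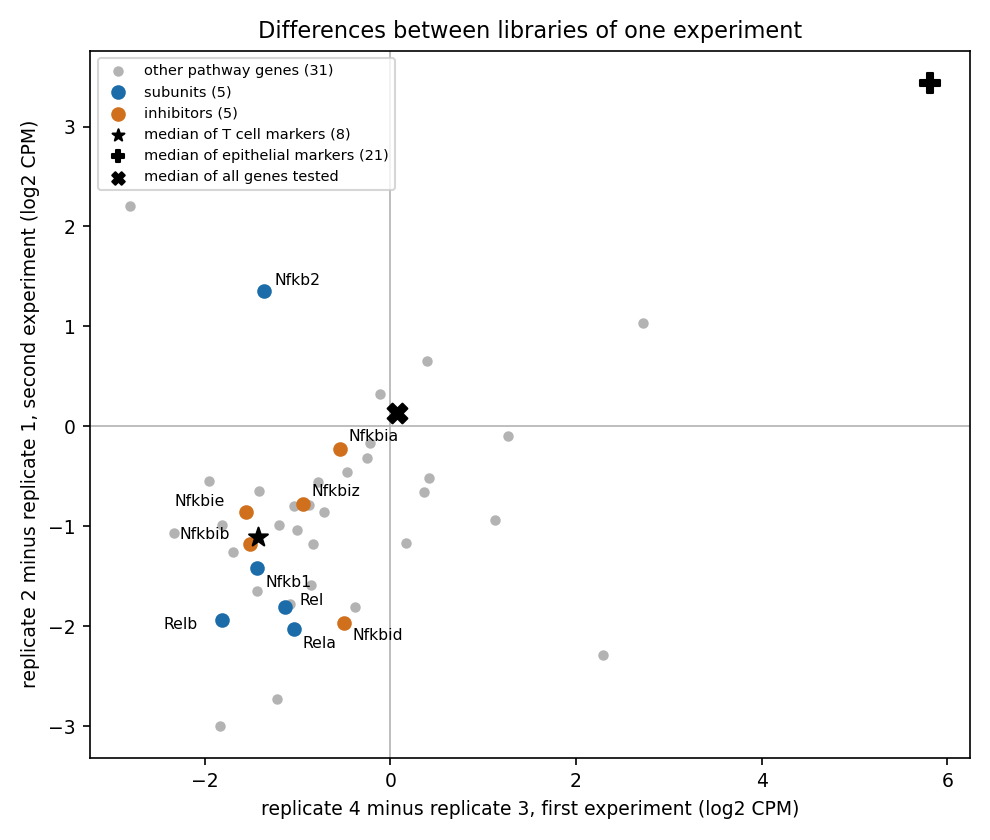
Each point gives the log2 CPM difference of a gene between replicates 4 and 3 of the first experiment (x axis) and between replicates 2 and 1 of the second (y axis), for the 5 subunits, the 5 inhibitors and 31 other genes of the pathway. The members except *Nfkb2* lie at lower left, as does the median of the T cell markers (-1.42 and -1.11), with *Nfkbia* closer to the median of all genes tested near the origin, and that of the epithelial markers at upper right (5.81 and 3.44).

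The experiments were compared to gauge replicate error, not a treatment. None of the 10 members differed by the quasi-likelihood test of edgeR at 0.05, either after Benjamini-Hochberg adjustment or without it. Over all 11689 genes this test called 0 (0%) after adjustment and 248 (2.12%) without it. DESeq2 called 41 genes (0.351%) after adjustment and 519 (4.44%) without it, and with no low-count filter edgeR called 60 of 16223 (0.37%) after adjustment, 0 of them members in each case. The biological coefficient of variation was 0.976, at which 2 libraries against 2 leave little power, so the lack of a call does not show equal levels. The largest differences were those of *Rela*, with a log2 difference of -1.29 (standard error 0.92, adjusted p = 0.9997), and of *Nfkbib*, with 1.27 (standard error 0.87, adjusted p = 0.9997). *Rela* averaged 33.5 CPM in the second and 82.0 CPM in the first experiment, and *Nfkbib* 77.6 and 32.2 CPM. *Nfkbia* was the single member whose libraries did not overlap by CPM, with 136 and 116 CPM in the second and 225 and 155 CPM in the first experiment. By TPM its libraries overlapped. Both libraries of the second experiment lay below both of the first for 14.4% of all genes tested and above them for 14.7%.

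**Figure D4:**
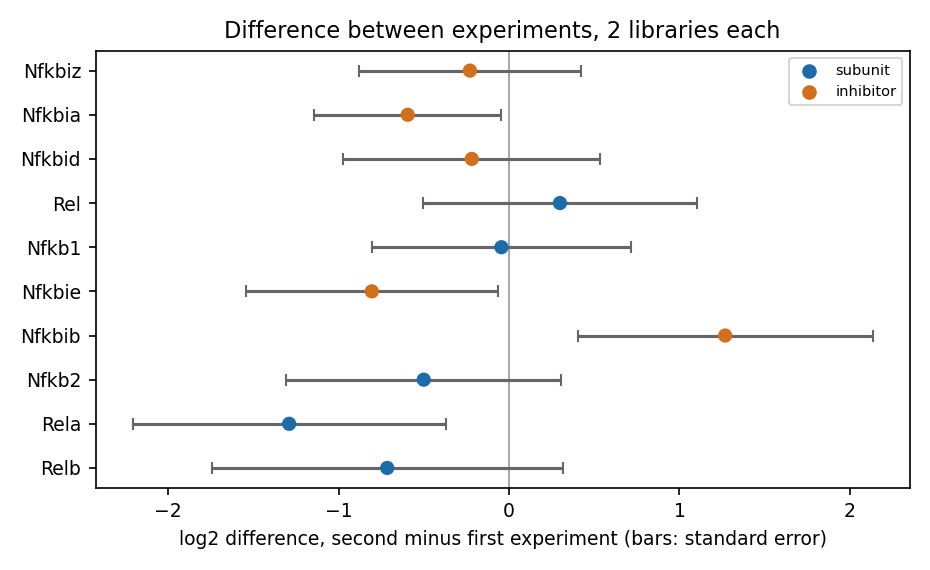
Points give the log2 difference of each member (mean of the second minus the first experiment, with 2 libraries in each) from edgeR and bars its standard error, with subunits and inhibitors in different colours. The values run from -1.29 for *Rela* to 1.27 for *Nfkbib*, and 0 of the 10 passed the test.

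*Nfkbia* and *Nfkbiz* were the steadiest members. The median SD of log2 CPM over the members was 0.85, from 0.41 for *Nfkbia* and 0.51 for *Nfkbiz* to 1.28 for *Rela*. The median was 0.61 over the 3993 genes within the members' range of mean log2 CPM, below which lay 2 of the 10, *Nfkbia* and *Nfkbiz*. Over all genes tested, many of them lower, it was 1.02.

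Likeness of 2 genes was measured as the root mean square difference of their log2 CPM over the 4 libraries after centring each on its mean. No correlation is given over so few libraries. The closest of the 45 pairs of members was *Nfkb1* with *Rel*, at 0.20 log2 units, followed by *Nfkb1* with *Nfkbiz* and *Nfkbia* with *Nfkbiz*, both at 0.30. The most distant pair was *Rela* with *Nfkbib*, at 1.47. Against the median profile of the members, *Nfkbiz* was the nearest member, at 0.16, and *Nfkb2* the farthest, at 0.91. The median over the members was 0.40, against 0.79 over the 8079 other genes that had 10 counts or more in every library. The members set that profile themselves, so they lie nearer to it by construction. The 3 other genes nearest to it were *B4galt1* (0.05), *Nt5dc1* (0.06) and *Cdk2* (0.06). With 4 libraries, such closeness is a description of these libraries only.

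**Figure D5:**
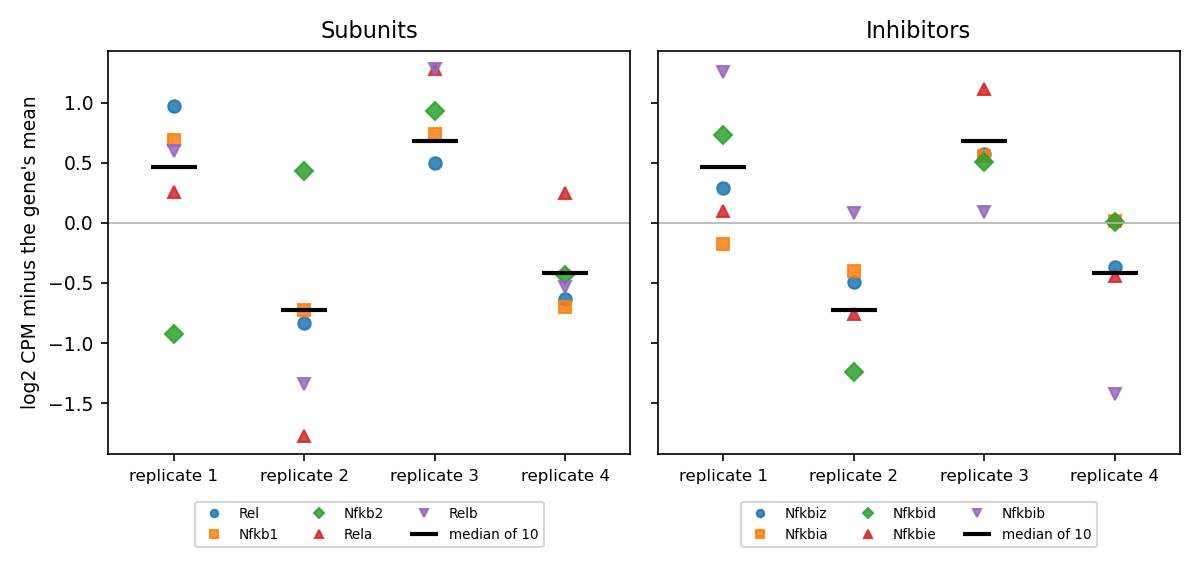
Points give the log2 CPM of each gene in each library minus its own mean, for subunits (left) and inhibitors (right), and bars the median of the 10 members. The median is above the mean in replicates 1 and 3 and below it in replicates 2 and 4. *Nfkb2* and *Nfkbia* depart from this in replicate 1, *Nfkb2* and *Nfkbib* in replicate 2, and *Rela*, *Nfkbia* and *Nfkbid* in replicate 4.

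The genes around the members were described from lists of 33 genes, of which 31 passed the filter on low counts. By edgeR, 0 of the 31 were higher and 0 lower in the second experiment at 0.05, with or without Benjamini-Hochberg adjustment. Of the 31, 26 stood above the 50th percentile by TPM and 5 above the 90th, beside 5594 and 873 of all 11689 genes. In replicate 4 than in 3 and in replicate 2 than in 1, 21 were lower, beside 29.9% of all genes. Genes of the IKK complex, which phosphorylates IκB, and of kinases and adaptors upstream of it were the lowest of these groups. They had a median percentile of 53.4, with 5 of 9 genes above the 50th. Their highest were *Tab2*, an adaptor of the kinase TAK1, with 267 ± 99.1 TPM (SD, n = 4), and *Map3k14*, the kinase of the non-canonical arm, with 58.8 ± 40.5 TPM. *Tab3*, a relative of *Tab2*, was lowest with 11.7 ± 3.34 TPM.

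The 4 genes that carry the signal of the antigen receptor to NF-κB all stood above the 50th percentile, with a median of 78.4. *Bcl10*, an adaptor of this route, had 112 ± 34.8 TPM and *Prkcq*, the kinase PKCθ, 84.4 ± 55.3 TPM. Among the other brakes, all 6 that passed the filter stood above the 50th percentile. *Tnfaip3*, which encodes the ubiquitin-editing enzyme A20, had 1401, 727, 1245 and 545 TPM in replicates 1 to 4, above each of the 10 members in each library. *Cyld*, a deubiquitinase, had 90.2 ± 51.9 TPM. *Tnip3*, which encodes an A20-binding protein, had 1 count in replicate 1, 0 in replicates 2 and 3 and 30 in replicate 4.

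Of 13 known NF-κB target genes, 12 passed the filter and 11 stood above the 50th percentile. Of the 12, 9 were lower in replicate 4 than in 3 and in replicate 2 than in 1, beside 29.9% of all genes. The chemokine gene *Ccl5* had 466 ± 245 TPM and the stress-response gene *Gadd45b* 443 ± 233 TPM. *Il2* had 0 counts in all 4 libraries, where 3 counts would correspond to 0.287 to 0.753 CPM. Both libraries of the second experiment lay below both of the first for 5 of the 12 target genes and for 8 of all 31 genes of these lists, beside the 14.4% of all genes tested. They lay above both of the first for 1 of the target genes and 3 of the 31, beside 14.7%.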

How the data were processed

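RNA of sorted SI-LP NKT cells was sequenced in 4 libraries of one condition, 2 from each of 2 experiments. The authors made the libraries with a low-input kit, aligned read pairs with HISAT2 by the methods, while the submitters' processing notes list Bowtie2 and RSEM, and deposited unnormalized counts. In the file's header, fragments with primary alignments on exons of a RefSeq annotation of mm10 (GRCm38) were counted with featureCounts 1.6.4 without strand. The methods name GRCm39, whereas the header and the submitters' processing notes name GRCm38, which is followed here. Gene lengths deposited by the authors are another column and were used for TPM. They are merged exons, so that TPM of genes with several isoforms is approximate. Of 6 library columns, 2 match no sample label and were not used.

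Totals ran from 3882803 to 8732858 counts, so that 3 counts correspond to 0.287 to 0.753 CPM. The ribosomal precursor *Rn45s* took 7.36% to 28.1%. CPM was scaled with edgeR's TMM factors, and log2 CPM used a prior count of 2. The 11689 genes that reached 10 counts in 2 or more libraries entered the quasi-likelihood test of edgeR between experiments, adjusted by Benjamini-Hochberg, at 0.05. Neighbours in level were compared with an exact sign-flip permutation test. Alternatives were DESeq2, other scalings, other filters, another prior count, CPM in place of TPM and leaving out each replicate. TPM without *Rn45s*, the NKT1 marker median and the epithelial share without *Lyz1* were added after the data were seen. The test was tried on simulated data with known changes, most of which it recovered at a low spread and none at the spread of these libraries. The κB consensus was searched in RefSeq promoter windows of GRCm38.p6.

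All 10 members, and of each pathway group the 2 highest genes and the lowest by mean TPM, are named, with genes that overlap a member and the 3 genes nearest in profile. Some genes that this rule or the marker lists would name are not reported here. The members and lists were chosen with earlier results of these data known. Fits were run in R 4.3.3 with edgeR 4.0.16 and DESeq2 1.42.0, and summaries and plots in Python 3.11.15 with scipy 1.17.1, pandas 2.3.3, numpy 2.4.6 and matplotlib 3.10.9.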

Additional observations from a re-analysis of the deposited data

Results flagged for a closer look

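Of 53 results examined for a library far from the other three, 4 stood out, where chance gives about 2.65, and several of the 53 share the same values. The share of *Nfkbie* in the summed TPM of the inhibitors was 15.2% in replicate 3 and 8.997% to 9.25% in the others, with a gap of 0.958 of the range. The ratio of *Nfkb1* to *Nfkb2* by TPM was 7.78 in replicate 1 and 1.13 to 2.21 in the others (gap 0.837). The ratio of *Nfkbia* to *Rela* by TPM was 15.0 in replicate 2 and 3.44 to 4.87 in the others (gap 0.876), where *Rela* had 136 counts in replicate 2. *Tnip3* had 7.53 CPM in replicate 4 and at most 0.139 CPM in the others (gap 0.982), values that rest on 30 counts against at most 1.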

How the results depend on the processing

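The count of members that differ between the experiments stayed at 0 under all 9 alternatives. Over all genes it went from 0 to 60 with edgeR without a filter on low counts and to 41 with DESeq2, and ran from 0 to 7 with one replicate left out (7 without replicate 3 and 6 without replicate 4); the cause was not tested. The inhibitor share (67.3%) was 52.8% with CPM in place of TPM, which does not correct for gene length, and 65.8% to 68.7% with one replicate left out. By CPM 2 of the 10 members kept their rank, and *Rel* moved from rank 4 to rank 1. The log2 difference between the experiments changed sign, short of the threshold in each case, for *Nfkb1* (-0.04) with library size alone (0.22) and without a filter (0.0026), and for *Nfkbiz* (-0.23) with library size alone (0.040). With one replicate left out it took either sign for 7 members and ran from -0.88 to 0.83 for *Nfkb1*, -1.33 to 0.32 for *Nfkb2*, -0.83 to 0.96 for *Rel*, -1.96 to 0.45 for *Relb*, -1.49 to 0.45 for *Nfkbid*, -1.38 to 0.16 for *Nfkbie* and -0.63 to 0.30 for *Nfkbiz*, while *Nfkbia* kept its sign, as did *Rela* (-2.61 without replicate 1 to -0.60 without replicate 2) and *Nfkbib* (0.60 without replicate 1 to 2.21 without replicate 3). No paired analysis was possible within these libraries, because they hold a single condition and no groups share replicate numbers. The study also sorted NKT cells from lymphoid tissues of the same animals, which are not among the libraries used here. Mean CPM and mean TPM of each member moved by less than their SD under each alternative run, although mean TPM of *Nfkbib* went from 73.9 to 47.8 without replicate 1. The lowest member value rests on 66 counts, and its Poisson interval is far narrower than the spread between libraries. That interval treats fragments as independent, which was not tested.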
